A study of Vitis vinifera with 36 samples.

Results

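Sucrose-phosphate synthase, a B-keto acyl reductase, a polygalacturonase of family GH28 and a chalcone and stilbene synthases family gene were the 4 metabolic genes chosen by their measured signal, for large differences between the seeded table grape variety Red Globe (RG) and the seedless Thompson Seedless (TS) at the pea-size stage. They are 4 of the 26688 probes of a grapevine array, found by the gene names on the array: GSVIVT01020928001 (VIT_05s0029g01140, sucrose-phosphate synthase, here SPS), GSVIVT01000603001 (VIT_01s0137g00070, B-keto acyl reductase, here KCR), GSVIVT01013800001 (VIT_01s0127g00120, polygalacturonase GH28, here PG) and GSVIVT01005975001 (VIT_00s0317g00160, chalcone and stilbene synthases family, here CHS/STS). The study collected ovules and developing seeds of RG, of the seeded variety Italia (IT) and of TS at pre-bloom (S1, BBCH 57 to 60), post-bloom (S2, BBCH 65 to 68), pea size (S3, BBCH 73 to 75) and veraison (S4, BBCH 81), BBCH being a scale of plant growth stages. All vines stood in 1 grape collection under conventional management, and none received hormones. Each variety is a single cultivar, each of the 12 groups has 3 biological replicates, and Autumn Royal, the second seedless variety of the design, was not analysed here. Total RNA was hybridised on 36 single-colour arrays.

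TS is stenospermocarpic: fertilisation takes place, the seed then stops developing and a soft rudiment stays in the berry. SPS makes the phosphorylated precursor of sucrose and is a control point of sucrose synthesis in plants. B-keto acyl reductases carry out the first reduction in the elongation of fatty acids; in Arabidopsis the endoplasmic reticulum enzyme serves the very long chains of waxes, sphingolipids and seed oil. Polygalacturonases cut the homogalacturonan backbone of pectin in the cell wall. Chalcone synthase opens the flavonoid pathway, which leads to the proanthocyanidins of the seed coat, and stilbene synthase makes resveratrol from the same substrates. The annotation of the fourth gene does not say which of the 2 activities it encodes, and stilbene synthases of grapevine form a large family of close copies whose transcripts 1 probe may not separate.

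Levels are given as the log2 of a probe's processed signal minus the 75th percentile of its array, so that 0 is the level of the array's 75th percentile and -5 is well under it. A probe was well above background on an array where the scanner software called it so. The arrays differed in brightness, with a 75th percentile between 100.4 and 1359 signal units and between 38.7% and 90.1% of probes well above background, and replicate arrays correlated between 0.855 and 0.991 over the 23068 probes tested. The 12 slides are another difference: RG and TS shared 7 of them, whereas IT was on 5 slides of its own, so that variety and slide cannot be told apart where IT is set against RG or TS. The seed identity gene VviAGL11 (GSVIVT01025945001) was well above background on all 36 arrays, as was anthocyanidin reductase (GSVIVT01006396001), an enzyme of seed coat proanthocyanidins. All 15 marker genes of ovule and seed coat, endosperm, embryo and green tissue were on the array. One array stood apart: in IT S4 the storage protein gene GSVIVT01028341001 (11S globulin) had levels of 8.97, 8.82 and -1.21, so that replicate 3 was far below its group mates, although above the RG S4 arrays (-4.23 to -4.20) and the TS S4 arrays (-4.46 to -3.57). Of the 3 arrays of IT S1, replicate 3 was the dimmest of all 36. IT S2 replicate 2 had 62.4% of probes well above background, and SPS, KCR, PG and CHS/STS were not among them. In bulk RNA, fewer cells of a type and less RNA per cell cannot be told apart.

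The differences that chose the genes were those between RG and TS at S3, and they are given as a description. SPS had levels of 0.40, 0.72 and 0.65 in RG S3 and of -5.16, -6.50 and -6.87 in TS S3. KCR had -0.64, -0.34 and -0.13 in RG and -5.57, -8.18 and -7.54 in TS. PG had 1.05, 0.65 and -0.65 in RG and -4.68, -7.23 and -6.96 in TS. In each of the 4 genes every RG array lay above every TS array, as 1 group did over the other for 55.3% of all probes. CHS/STS had -0.07, 0.15 and 0.39 in RG and -4.71, -6.64 and -7.43 in TS. The log2 differences were 6.76 for SPS, 6.72 for KCR, 6.64 for PG and 6.41 for CHS/STS, which are ranks 6, 7, 8 and 9 among the 23068 probes tested. The TS side was close to the limit of detection, since SPS was well above background on 2 of the 3 TS arrays and each of the other genes on 1. On the 2 slides that held an array of both varieties at S3, the differences were 5.56 and 7.59 for SPS, 4.93 and 7.20 for KCR, 5.73 and 7.60 for PG and 4.64 and 7.58 for CHS/STS. At this stage 23.6% of all probes passed the threshold used below for the other stages.

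**Figure D1:**
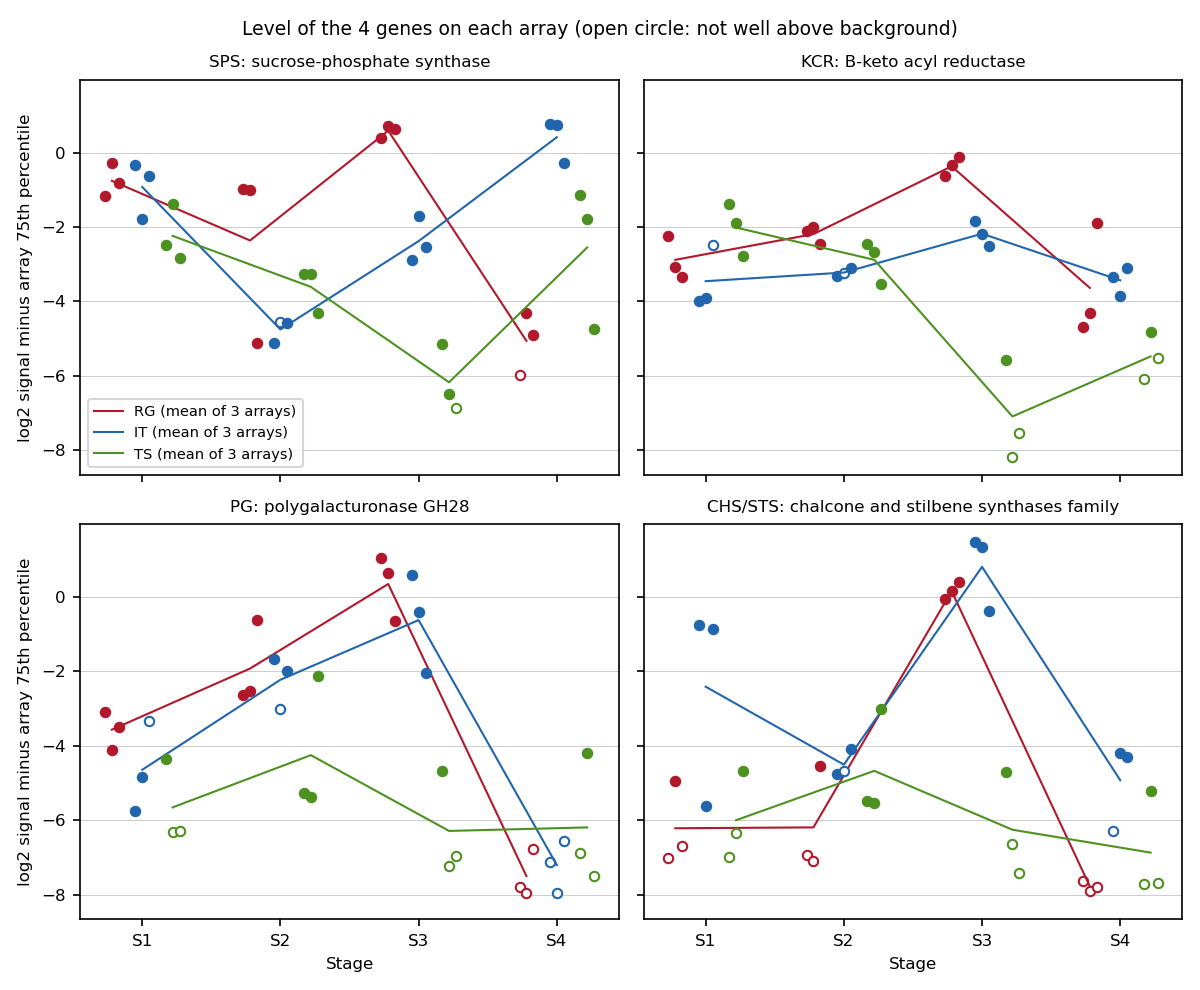
Level of each gene (log2 signal minus the array's 75th percentile, vertical axis) by stage (horizontal axis) on every array of RG, IT and TS. Circles are arrays, open where the probe was not well above background, and lines join the means of 3 arrays. At S3 the RG arrays of all 4 genes lie above the TS arrays, and at S4 PG and CHS/STS are open circles on all RG arrays.

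IT showed the S3 level of RG in a part of the genes only. PG had levels of 0.60, -0.41 and -2.05 in IT S3, which overlapped with RG S3. CHS/STS had 1.47, 1.35 and -0.39 in IT S3, which overlapped with RG S3 too and held the 2 highest levels of the gene on any array. The IT arrays of SPS lay lower, with -2.90, -1.70 and -2.54, under all 3 RG arrays (no overlap for 59.4% of all probes) and above all 3 TS arrays (60.2%). KCR was likewise between the other varieties, with -1.85, -2.19 and -2.50 in IT S3. The log2 differences of IT over TS at S3 were 3.80 for SPS, 4.91 for KCR, 5.67 for PG and 7.07 for CHS/STS, given as a description since the TS arrays were used in the choice.

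The remaining stages were not used in the choice, and there a gene was called with a limma adjusted p under 0.05 over all 23068 probes and a log2 difference over 1. Between RG and TS, none of the 4 genes was called at S1, where 5.61% of all probes were called, nor at S2, where 4.96% were. At an unadjusted p under 0.05, limma gave 1 gene at each of these stages, PG both times, and the methods' t-test gave 0. The share of all probes at an unadjusted p was not taken, here or below, so such counts are only a description. At S4, 2 of the 4 genes were called, in opposite directions, beside 16.9% of all probes. Same-numbered RG and TS arrays deviated together at S1, S2 and S4, and with a block for the replicate number within each stage the same genes were called, while the probes called in all went from 1294 to 2143 at S1 and from 1144 to 2173 at S2. The methods' t-test, with its p adjusted over all probes, was run for most differences called below and kept 0 of these calls. This is not repeated at each, and the paper names no such adjustment.

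SPS had levels of -1.17, -0.28 and -0.82 in RG S1 against -2.49, -1.40 and -2.84 in TS S1. The arrays did not overlap, as for 16.3% of all probes, and the log2 difference of 1.48 (SE 0.83, n = 3 and 3) did not pass the test (limma adjusted p = 0.405). Within slides the S1 differences were 1.32, 1.11 and 2.02, and the fit with the pairs as blocks did not call SPS either. At S2 the RG levels were -0.98, -0.99 and -5.12, and those of TS -3.27, -3.25 and -4.31. A single RG array, replicate 3, lay below all TS arrays. Without that array SPS was called higher in RG at S2, by 2.62 (limma adjusted p = 0.0223). At S4 the order was turned: RG had -5.99, -4.31 and -4.89, and TS had -1.14, -1.78 and -4.74. SPS was lower in RG by a log2 difference of -2.51 (SE 0.83, limma adjusted p = 0.0325), 5.70-fold. The groups overlapped in 1 TS array, and the exact permutation test of the arrays gave p = 0.2, where 3 arrays against 3 allow no p below 0.1. The differences within slides at S4 were -4.85, -2.53 and -0.16, and the call was lost without either of RG replicates 1 and 3 or of TS replicates 1 and 2, with log2 differences between -2.60 and -1.81. It was also lost with quantile normalization (-1.88, limma adjusted p = 0.198), without scaling (limma adjusted p = 0.106), with normexp background correction (-1.02, limma adjusted p = 0.289) and with only the arrays compared (limma adjusted p = 0.206).

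KCR had levels of -4.70, -4.32 and -1.90 in RG S4 against -6.09, -4.83 and -5.52 in TS S4, with no overlap, as for 29.2% of all probes at S4. It was higher in RG by a log2 difference of 1.84 (SE 0.60, limma adjusted p = 0.0291; exact permutation p = 0.1), and 1 of the 3 TS arrays measured it above background. RG replicate 3 carried most of the difference, which was 0.97 (limma adjusted p = 0.266) without it, and the call was also lost without TS replicate 1 (1.54) or 3 (1.82). It was lost as well with normexp (0.39, limma adjusted p = 0.886), with array weights (0.87, limma adjusted p = 0.151), without scaling (limma adjusted p = 0.0883) and with only the arrays compared (limma adjusted p = 0.246). Within slides the differences were 1.39, 0.51 and 3.63. At S1 and S2 the differences of KCR were under 1 in size.

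PG had levels of -3.10, -4.11 and -3.49 in RG S1, and of -4.36, -6.33 and -6.28 in TS S1, with 1 of the 3 TS arrays above background. All RG arrays were higher (no overlap for 16.3% of all probes), with a log2 difference of 2.09 (SE 0.93, limma adjusted p = 0.23) that did not pass. At S2 the RG levels were -2.64, -2.52 and -0.62 and the TS levels -5.26, -5.36 and -2.13, so that replicate 3 was the highest array in both varieties. The log2 difference of 2.33 (SE 0.93, limma adjusted p = 0.167) did not pass either, and passed without TS replicate 3 (3.39, limma adjusted p = 0.0365). Within slides RG was above TS on all 5 pairs of arrays at S1 and S2, by 1.25 to 2.85. The share of all probes with the same sign on all 5 pairs was not taken, so this is only a description. At S4, PG was not well above background on any RG array and was so on 1 TS array.

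CHS/STS was dim in both varieties outside S3. In RG it was well above background on 1 of 3 arrays at S1, on 1 at S2 and on 0 at S4, with levels of -7.64, -7.91 and -7.79 at S4. In TS it was so on 1 array at S1, on 3 at S2 and on 1 at S4, and the levels ran from -6.98 to -4.68 at S1, from -5.53 to -3.01 at S2 and from -7.72 to -5.20 at S4. The groups overlapped at each of these stages, and no difference between RG and TS passed the test there.

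**Figure D2:**
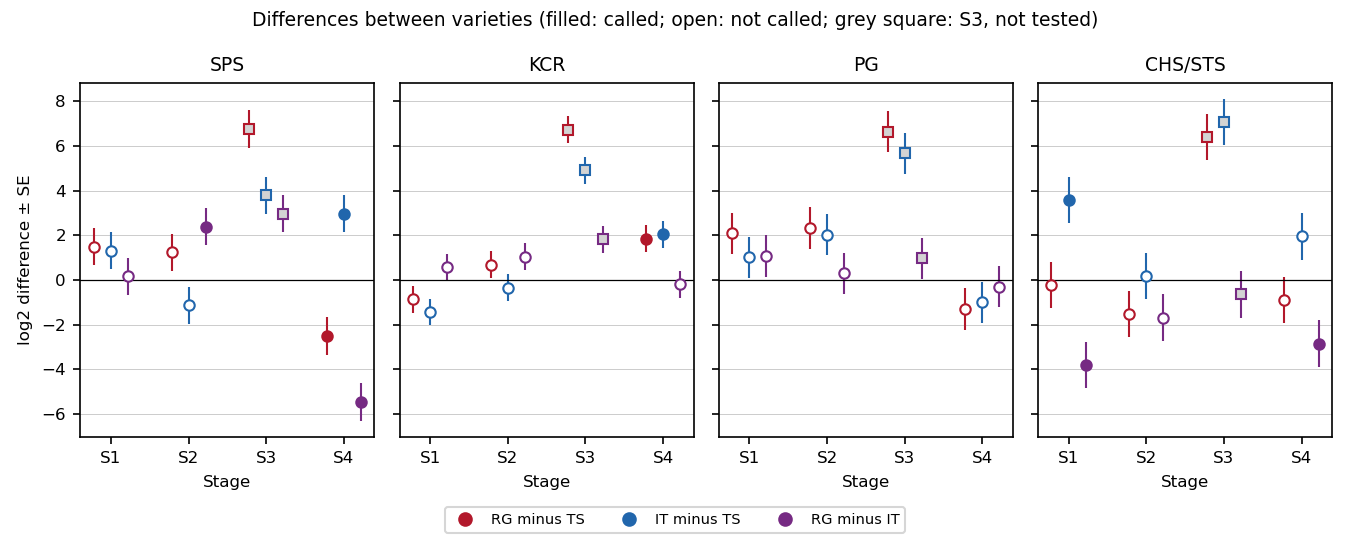
Log2 difference between varieties (vertical axis, with the standard error of the limma fit) at each stage (horizontal axis) for the 4 genes. Filled circles were called, open circles were not, and grey squares at S3 were not tested because these arrays chose the genes. SPS is above 0 at S3 and under 0 at S4 for RG minus TS, while IT minus TS is above 0 at both.

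Against TS, IT had 3 calls in the 3 stages, in comparisons that share the TS arrays with those of RG. At S1, CHS/STS was called higher, beside 12.1% of all probes called, with levels of -0.75, -5.61 and -0.86 in IT and of -6.98, -6.34 and -4.68 in TS. IT replicate 2 lay among the TS arrays, and the log2 difference was 3.59 (SE 1.04, limma adjusted p = 0.0223; exact permutation p = 0.2). The call did not hold without IT replicate 1 or 3 or TS replicate 1 or 2. Without IT replicate 3, the dimmest array, the difference was 2.82 (limma adjusted p = 0.145), and without each of the others it was between 2.76 and 3.42. The call was also lost with quantile normalization (3.05), without scaling (3.22), with normexp (1.41), with array weights (3.03) and with only the arrays compared (limma adjusted p = 0.244). No gene was called at S2, where 11.2% of all probes were and where PG passed an unadjusted p under 0.05 in limma and no gene did in the methods' t-test.

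At S4 both SPS and KCR were called higher in IT than in TS, beside 29.2% of all probes. SPS had levels of 0.77, 0.73 and -0.27 in IT S4, above all TS arrays (no overlap for 44.5% of all probes), with a log2 difference of 2.96 (SE 0.83, limma adjusted p = 0.00745), 7.80-fold. KCR had -3.36, -3.85 and -3.09 in IT S4, also above all TS arrays, with a log2 difference of 2.05 (SE 0.60, limma adjusted p = 0.0099). Without IT S4 replicate 3, the array low in the storage gene, the differences were 3.30 for SPS (limma adjusted p = 0.00884) and 1.88 for KCR (limma adjusted p = 0.0367). The call of SPS was lost without TS replicate 3 (1.87) and with only the arrays compared (limma adjusted p = 0.0656), and normexp moved it to 1.78. That of KCR was lost without TS replicate 1 (1.74), with quantile normalization (limma adjusted p = 0.0665) and with normexp (0.52).

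Between the 2 seeded varieties, which lay on different slides, the calls at S1, S2 and S4 were in SPS and CHS/STS. At S4, SPS was lower in RG than in IT by a log2 difference of -5.47 (SE 0.83, limma adjusted p = 1.5e-05), 44.4-fold, with no overlap (45.1% of all probes), beside 29.3% of all probes called. This was the largest of the differences between varieties outside S3 and stayed called with each array left out in turn, while normexp moved it to -2.80. At S2, SPS was higher in RG by 2.39 (SE 0.83, limma adjusted p = 0.0477; 14.1% of all probes called), IT having -5.13, -4.55 and -4.58. RG replicate 3 fell within that range, and the call was lost without any one of the 5 other arrays (1.70 to 2.49); it was kept without RG replicate 3, at 3.77. It was also lost without scaling (2.37), with normexp (0.58), with the percentile over probes above background (2.33), with no filter on dim probes (limma adjusted p = 0.0536) and with only the arrays compared (limma adjusted p = 0.186). CHS/STS was lower in RG at S1, by a log2 difference of -3.81 (SE 1.04, limma adjusted p = 0.0212; 8.49% of all probes called), and at S4, by -2.85 (SE 1.04, limma adjusted p = 0.0353). Without IT S1 replicate 3 the first was -3.03 (limma adjusted p = 0.156), and it was likewise lost without IT replicate 1 (-2.98) or RG replicate 1 (-3.40) or 3 (-3.57), and with quantile normalization (-3.15), without scaling (-3.30), with normexp (-1.20) and with only the arrays compared (limma adjusted p = 0.24). The S4 difference is a fold of at least 2.31, IT over RG, taking for the RG arrays the lowest signal well above background. With all signals floored at 10, a higher limit, it was -0.86 (limma adjusted p = 0.427) and not called. The call was also lost with quantile normalization (-2.56), without scaling (-2.88), with normexp (-0.62) and without any array but IT replicate 1, IT replicate 3 giving -2.54 (limma adjusted p = 0.1). KCR and PG were called in none of the 3 stages.

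Within IT, whose arrays took no part in the choice, 5 of the 12 stage changes were called. SPS had levels of -0.34, -1.80 and -0.64 at S1 and fell to S2, with a log2 difference of -3.83 (SE 0.83, limma adjusted p = 0.00358; 8.51% of all probes called), and with normexp was -1.40 and not called (limma adjusted p = 0.143). It had a log2 difference of 2.37 from S2 to S3 that did not pass (limma adjusted p = 0.0671), and it rose from S3 to S4 by 2.79 (SE 0.83, limma adjusted p = 0.0116; 24.7% of all probes called). Within slides the rise from S3 to S4 was 3.67, 2.43 and 2.27. Without IT S3 replicate 1 it was 2.53 (limma adjusted p = 0.0507), and without scaling 1.78 (limma adjusted p = 0.149). IT was the variety with the highest SPS levels at veraison.

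CHS/STS rose in IT from S2 to S3 by 5.32 on the log2 scale (SE 1.04, limma adjusted p = 0.0014; 8.91% of all probes called) and fell from S3 to S4, with a log2 difference of -5.74 (SE 1.04, limma adjusted p = 0.0001). The S2 levels were -4.77, -4.67 and -4.08, and those at S4 -6.28, -4.20 and -4.29, with no overlap with S3 in either case (36.5% and 47.9% of all probes). IT S2 replicate 2, at -4.67, was not well above background. Without that array the rise of CHS/STS was 5.23 (limma adjusted p = 0.00639). PG fell from S3 to S4, with a log2 difference of -6.59 (SE 0.93, limma adjusted p = 3.3e-06). None of the 3 IT arrays at S4 was well above background, and the fold is at least 42.5. With slide as a fixed block the rise of CHS/STS was 4.27 and not called (limma adjusted p = 0.067). Normexp kept these 3 calls at 2.93 and -2.92 for CHS/STS and -1.92 for PG. Both falls stayed called without IT S4 replicate 3, at -6.05 for CHS/STS and -6.91 for PG. KCR was not called in any stage change of IT, with a level of -2.18 ± 0.33 at S3 (SD, n = 3) and of -3.43 ± 0.39 at S4.

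In RG and TS, stage changes were tested between stages that took no part in the choice. From S1 to S2 none of the 4 genes was called in RG (0.815% of all probes called) or in TS (3.37%), and 0 passed an unadjusted p under 0.05 in limma or in the methods' t-test. For S2 to S4, no S2 array of RG or TS shared a slide with an S4 array of either variety. Stage and slide could therefore not be compared within slides in these changes, for the genes here or for the pathway lists below. From S2 to S4, SPS and PG fell in RG, beside 30.0% of all probes called. PG fell, with a log2 difference of -5.58 (SE 0.93, limma adjusted p = 2.3e-05), with no RG array above background at S4 and a fold of at least 18.5. With all signals floored at 10 it was -3.61, still called, and with normexp -1.30 and not called (limma adjusted p = 0.0981). SPS fell, with a log2 difference of -2.70 (SE 0.83, limma adjusted p = 0.0121; exact permutation p = 0.3), and RG S2 replicate 3, at -5.12, overlapped with the S4 arrays. Without that replicate the difference was -4.08, and without RG S2 replicate 1 (limma adjusted p = 0.0957) or 2 (-2.01) or RG S4 replicate 1 (-2.23) the call was lost. It was also lost with quantile normalization (-1.88), normexp (-0.88) and only the arrays compared (limma adjusted p = 0.173), and array weights moved it to -4.10. In TS, KCR fell, with a log2 difference of -2.60 (SE 0.60, limma adjusted p = 0.00138; 25.9% of all probes called), from levels of -2.46, -2.67 and -3.53 at S2, with no overlap (40.5% of all probes). With normexp this was -0.16 and not called (limma adjusted p = 0.795).

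The change of SPS from S2 to S4 differed between the varieties. The change in RG minus that in TS was -3.76 (SE 1.18, limma adjusted p = 0.0381; 10.6% of all probes called). It was lost without RG S2 replicate 1 or 2, RG S4 replicate 1, any TS S2 array or TS S4 replicate 1 or 2 (-3.94 to -3.05), with quantile normalization (-3.03), without scaling (-3.07), with normexp (-2.11) and with only the arrays compared (limma adjusted p = 0.26). Array weights moved it to -5.65. A further pair of differences, added after the values were seen, set IT against each of the other varieties. The change in IT minus that in RG was 7.86 (SE 1.18, limma adjusted p = 2.8e-05; 18.5% of all probes called), and that in IT minus that in TS was 4.11 (SE 1.18, limma adjusted p = 0.0161; 16.0%). The first stayed called with each array left out in turn and was 3.37 with normexp, and the second was lost without TS S4 replicate 3 (3.02, limma adjusted p = 0.0595) and with normexp (1.27). The 3 differences share arrays. None of the other genes was called in any of them, PG being nearest between RG and TS with -3.64 (limma adjusted p = 0.077).

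In RG and TS the steps into and out of S3 are a description, since the S3 arrays of both chose the genes. From S2 to S3 the log2 differences in RG were 2.95 for SPS, 1.82 for KCR, 2.27 for PG and 6.35 for CHS/STS. From S3 to S4 they were -5.65, -3.27, -7.85 and -7.94, in the same order, and RG S4 was not above background for PG and CHS/STS, whose folds are at least 89.6 and 78.5. In TS the differences from S2 to S3 were -2.57, -4.21, -2.04 and -1.58. Each gene had a lower mean at S3 than at S2 in TS and a higher one in RG, a contrast that the choice of genes favours. At S3 in TS, SPS was well above background on 2 of 3 arrays and each other gene on 1, so the size of these falls is unsure. With TS S3 arrays raised to the lowest signal well above background, the KCR mean was -6.41 instead of -7.09.

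Ordered by mean level over the 12 groups, RG S3 stood first for SPS (0.59 ± 0.17, SD, n = 3), KCR (-0.37 ± 0.26) and PG (0.35 ± 0.89), and second for CHS/STS (0.16 ± 0.23) after IT S3 (0.81 ± 1.04). RG S3 and TS S3 hold the arrays that chose the genes, so places near the ends of the order follow in part from the choice. RG S3 overlapped with the next group for SPS (IT S4) and PG (IT S3), and did not overlap with it for KCR (TS S1, -2.02 ± 0.71). For CHS/STS the 2 leading groups overlapped and both were clear of the third, IT S1 (-2.41 ± 2.78). For SPS the 2 leading groups were clear of the third too, RG S1 (-0.76 ± 0.45), and from the third to the ninth group each overlapped with its neighbour. At the low end stood TS S3 for SPS (-6.18 ± 0.90) and KCR (-7.09 ± 1.36), and RG S4 for PG (-7.50 ± 0.64) and CHS/STS (-7.78 ± 0.13), each overlapping with the group before it. The share of all probes without overlap was not taken for these neighbouring groups, so the lack of overlap is only a description. Over the 36 arrays, SPS was well above background on 33, KCR on 30, PG on 22 and CHS/STS on 21.

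The 4 profiles were not copies of each other. Over the 12 group means, Pearson's r was 0.73 between PG and CHS/STS, 0.66 between KCR and PG, 0.60 between KCR and SPS, 0.54 between KCR and CHS/STS, 0.45 between SPS and CHS/STS and 0.29 between SPS and PG, as a description that includes the S3 groups used in the choice and the scaling shared within an array. With VviAGL11, r was 0.41 for KCR, 0.32 for SPS, 0.31 for CHS/STS and 0.12 for PG. Among 21152 probes well above background on at least 18 arrays, those most like SPS were GSVIVT01027509001 (r = 0.96), GSVIVT01025270001 (r = 0.92) and GSVIVT01029453001 (r = 0.92). For KCR these were GSVIVT01029103001 (r = 0.90), GSVIVT01009140001 (r = 0.88) and the translation initiation factor eIF-3 subunit gene GSVIVT01035660001 (r = 0.87). PG was most like a gene of the nucleoside hydrolase family, GSVIVT01033806001 (r = 0.92), followed by GSVIVT01009281001 (r = 0.91) and the acid phosphatase gene GSVIVT01028404001 (r = 0.90). For CHS/STS they were GSVIVT01003706001e3 (r = 0.90), the FK506-binding protein gene GSVIVT01038097001 (r = 0.90) and the fibrillin family gene GSVIVT01035544001 (r = 0.90).

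Other genes of each pathway were taken by annotation, mostly from tables of genes the study found to differ in these samples, so that their counts are not independent evidence. In sucrose metabolism 8 other genes were tested. At S4, 4 of them were higher and 1 lower in RG than in TS, beside 16.9% of all probes called, the median being 1.01 against -0.05 over all probes. The sucrose-proton symporter SUC2 gene GSVIVT01034886001, a loader of sucrose into cells, was higher by 3.26 (limma adjusted p = 1.5e-05), and the vacuolar invertase gene GSVIVT01018625001, whose enzyme splits sucrose, was lower by -5.39 (limma adjusted p = 1.5e-08). A second sucrose-phosphate synthase gene, GSVIVT01012825001, rose from S2 to S4 in RG by 2.12 (limma adjusted p = 1.1e-06) and in TS by 2.03 (limma adjusted p = 3.5e-06). Its levels in RG were -0.06, -0.12 and -0.09 at S2 and 1.97, 2.26 and 1.87 at S4, so that in RG the 2 genes with this annotation went opposite ways over this interval. Between RG and TS at S4 its log2 difference was -0.38 (SE 0.29, limma adjusted p = 0.435).

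In fatty acid elongation, 9 of the 10 other genes listed were tested. None was higher and 4 were lower in RG than in TS at S4, with a median of -1.37 and 16.9% of all probes called, where KCR was higher. In IT against TS at S4, where KCR was higher too, 3 of the 9 passed as higher and 2 as lower beside 29.2% of all probes, their median being 0.49. The 4 lower in RG are ketoacyl-CoA synthases, the condensing enzymes of the same cycle, and GSVIVT01031042001 had the largest difference (-3.50, limma adjusted p = 4.3e-08), followed by GSVIVT01032613001 (-3.25, limma adjusted p = 0.000232). The 3-ketoacyl-CoA reductase gene GSVIVT01019741001, which has the same activity in its name as KCR, was not called in any comparison, and its group means lay between 1.58 and 2.39. From S2 to S4, 6 of the 9 genes fell in RG (30.0% of all probes called) and 4 in TS (25.9%), with none that rose.

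In pectin degradation 23 other genes were tested. From S2 to S4, 16 fell and 1 rose in RG, with a median of -3.64 and 30.0% of all probes called. In TS 15 fell and 2 rose, with a median of -2.36 and 25.9% of all probes called. The GH28 polygalacturonase genes GSVIVT01013771001 (-7.09, limma adjusted p = 3.4e-07) and GSVIVT01026985001 (-6.98, limma adjusted p = 3.7e-08) had the largest falls in RG, beside the fall of PG. In IT, 12 of the 23 fell from S3 to S4 and 1 rose (24.7% of all probes called), with the same 2 genes at the head (-7.90 and -7.61). At S4, 8 were lower and 1 was higher in RG than in TS (16.9% of all probes called), led by the pectin acetylesterase gene GSVIVT01017717001 (-3.99, limma adjusted p = 3.8e-10), whose enzyme removes acetyl groups from pectin.

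In the flavonoid and stilbene entry list 5 other probes were tested, 1 for chalcone synthase and 4 for chalcone isomerase, the enzyme of the next step. All 5 were lower in RG than in IT at S4, with a median of -3.54 against -0.23 over all probes and 29.3% of all probes called, and CHS/STS was lower there as well. In IT, 3 of the 5 rose from S2 to S3 (8.91% of all probes called), the interval in which CHS/STS rose, the chalcone isomerase gene GSVIVT01032685001 by 1.91 (limma adjusted p = 0.0189). At S4, 4 of the 5 were higher in IT than in TS (29.2% of all probes called), GSVIVT01032685001 by 3.47 (limma adjusted p = 1.1e-05). Between RG and TS at S4, 0 were higher and 1 was lower (16.9% of all probes called).

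**Figure D3:**
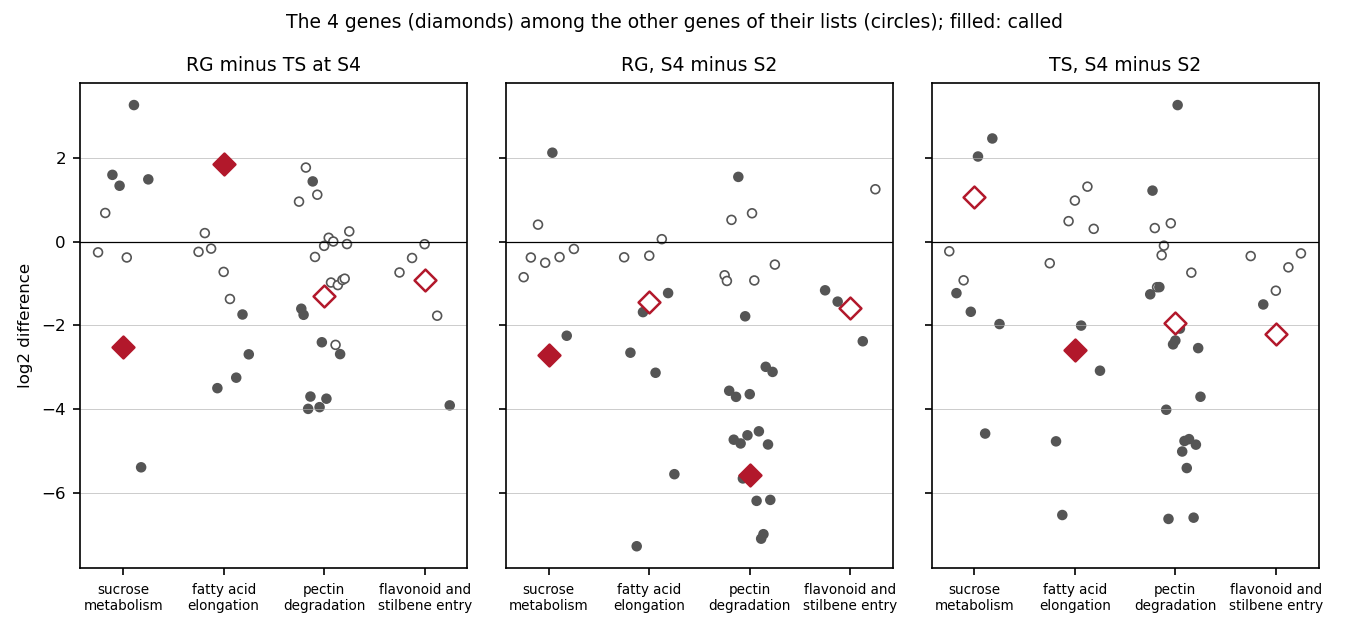
Log2 difference (vertical axis) of the 4 genes (diamonds) and of the other tested genes of each pathway list (circles, horizontal axis by list) for RG minus TS at S4 and for S4 minus S2 in RG and in TS. Filled symbols were called. KCR is the 1 filled symbol above 0 in the fatty acid elongation list at S4, and PG lies among the 16 other pectin genes that fell in RG.

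Tissue marker sums moved with some of these differences. The summed green tissue level ran from 5.54 to 6.09 in TS S4, from 3.63 to 4.96 in RG S4 and from 2.13 to 2.67 in IT S4, and the summed ovule and seed coat level from 2.63 to 3.16 in TS S4, from 5.96 to 6.25 in RG S4 and from 6.24 to 7.26 in IT S4. In IT the green tissue sum was 6.75 to 7.27 at S3, and the embryo and storage sum had a median of -0.66 at S3 and of 8.83 at S4, where its lowest array was at -0.45. The embryo and storage sum had a median of -0.38 in TS S4 and of -0.96 in RG S4. The endosperm sum lay between -0.81 and -0.16 in all 3 varieties at S4. Before bloom that endosperm sum was already at -0.49 to -0.19 in RG S1 and at -0.47 to 0.20 in TS S1. Like levels of it at S4 therefore do not show like amounts of endosperm. The part of tissue makeup in the S4 differences of SPS, KCR and CHS/STS, and in the changes of SPS, PG and CHS/STS from S3 to S4 in IT, was not tested. At S3 the green tissue sums were alike, from 6.53 to 6.83 in TS and from 6.78 to 7.29 in RG. The ovule and seed coat sums were 5.21 to 5.47 in TS and 6.66 to 6.97 in RG at S3. The endosperm sums there were -0.45 to -0.36 in TS and 0.21 to 0.70 in RG. For embryo and storage they were -0.36 to -0.14 in TS and -0.17 to 0.05 in RG. The part of tissue makeup in the S3 differences was not tested.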

How the data were processed

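Total RNA of ovules and seeds was hybridised on Agilent single-colour arrays. The authors deposited the scanner output of Feature Extraction 10.7.1.1 which holds the processed intensity of each spot after the software's own background step, and a matrix of mean intensity per probe; 99.1% of the matrix values lay within 0.1% of the unscaled means, so the 75 percentile normalization named in the methods was applied here. The 43803 spots hold 26688 probes. Unflagged spots of a probe were averaged (3 spots for KCR and PG, 2 for SPS, 1 for CHS/STS), 124 probes with no unflagged spot on some array were left out, and log2 values were scaled. A probe was well above background where at least 0.5 of its spots were, and was tested where this held on all 3 arrays of at least 1 group (23068 probes).

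limma 3.58.1 in R 4.3.3 was fitted to 36 arrays with 1 mean per group (24 residual degrees of freedom) and Benjamini-Hochberg adjustment over all probes tested. Exact permutation tests were two-sided, with 0.1 as their smallest p. For a group with no array above background, the fold is a bound: each of its arrays takes the higher of the probe's signal and the lowest signal well above background. The number of arrays limits the precision. Same-numbered RG and TS arrays deviated together at S1, S2 and S4 (correlations of 0.477 to 0.804, most on a shared slide), and so did S2 and S4 arrays within RG and TS (0.379 to 0.640); in these comparisons the number was taken to pair arrays. Same-numbered arrays did not pair in comparisons with IT, within IT or at S3. From S1 to S2 they were mixed. Replicates 1 and 3 correlated at 0.707 and 0.620 in RG and at 0.609 and 0.675 in TS, and replicate 2 at -0.417 and -0.257. The limma p-values measure spread between replicate arrays, pooled over the 12 groups and drawn toward that of all probes. For SPS the group SD ran from 0.17 in RG S3 to 2.39 in RG S2, and the pooled fit uses 1 spread for all groups. As each variety is 1 cultivar, the p-values do not measure spread between cultivars.

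The members and the pathway lists were chosen with earlier results of these data known. The text names the 4 members, genes of the lists that were called (up to 4 a list with the largest differences) and, per member, the 3 probes with the most similar group means; GSVIVT01019741001 was added for its annotation after its values were seen. Differences under 1 are not named. Alternatives were quantile normalization, no scaling, the percentile over probes above background, normexp (offset 50), the matrix, other filters, a floor of 10, only the arrays compared, blocks for replicate number, slide or scan session, array weights, the methods' t-test and each array left out. Gene sequences and positions are not given here.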

Additional observations from a re-analysis of the deposited data

Results flagged for a closer look

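The change of SPS (GSVIVT01020928001) from S2 to S4 differed between the varieties in a test of the difference itself, and is given as values only. The RG change minus the TS change was -3.76, the IT change minus the RG change was 7.86, and the IT change minus the TS change was 4.11 on the log2 scale. RG had a mean level of -2.36 at S2 and of -5.06 at S4. For IT these were -4.75 and 0.41, and for TS they were -3.61 and -2.55. The RG minus TS change lost its call without any one of 8 of its 12 arrays, with values between -3.94 and -3.05.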

How the results depend on the processing

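The 20 differences called kept their direction under every alternative run and with each array left out. The call was kept in 213 of 272 fits under an alternative and in 98 of 138 fits without 1 array. With the methods' t-test and its p adjusted over all probes 0 of 17 were kept, and with normexp 7 of 20. The paper names no such adjustment. At an unadjusted p under 0.05 that t-test passed 4 of the 4 genes in IT from S3 to S4 and 3 in IT from S2 to S3. It passed 1 in RG against IT at S4 and 0 in RG against TS at S4. The share of all probes passing that unadjusted t-test was not taken, so these counts are a description. Arrays did not overlap for 47.9% of all probes in IT from S3 to S4 and for 36.5% from S2 to S3. The part of the adjustment, or of the normexp offset, in the lost calls was not tested. The filter to probes above background on all arrays holds 0 of the 4 genes, and slide as a fixed block gave no estimate for IT against RG or TS.

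Of 12 each, 2 were called in RG against TS, 3 in IT against TS and 4 in RG against IT over S1, S2 and S4, and 5 in stage changes of IT; 3 of 16 were called in stage changes of RG and TS, and 1 of 4 in the RG minus TS change. In that order, normexp gave 0, 1, 1, 4, 0 and 0, no scaling gave 0 for RG against TS, 1 for RG against IT, 6 for RG and TS stages and 0 for the change, and array weights gave 4, 5, 6, 10, 5 and 2. The t-test, with its p adjusted over all probes, gave 0 in each where it was run, and only the arrays compared 0, 1, 2 and 8 and, for the change, 0. Quantile normalization gave 1 for RG against TS and 0 for the change, for which slide and scan session as random blocks gave 2. Without 1 array the counts ran from 0 to 3, 2 to 4, 2 to 4, 4 to 6, 2 to 5 and 0 to 2. The replicate block changed no call of a member between RG and TS, nor from S2 to S4. Where numbers do not pair arrays, it called SPS in IT from S2 to S3 (limma adjusted p = 0.0391). The count of all probes called moved with the setting as well. With array weights it went from 6728 to 11357 for IT against TS at S4. It went from 6757 to 11352 for RG against IT at S4 and from 2055 to 5815 for IT from S2 to S3. For the RG minus TS change it went from 2447 to 6254. With normexp it was 2932 for IT against TS at S4. The part of these shifts in the member counts was not tested.

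Differences that were not called turned sign as follows. With normexp, CHS/STS was 0.062 for RG against TS at S2, 0.17 for RG and 0.40 for TS from S2 to S4, 0.034 for TS from S2 to S3, -0.16 for the IT minus RG change and -0.39 for the IT minus TS change; SPS was 0.51 for IT against TS at S2; PG was 0.046 for IT against TS at S4 and 0.31 for TS from S2 to S4; and KCR was -0.20 for the RG minus TS change. With array weights, PG was 0.026 for TS from S2 to S4, and CHS/STS -0.49 and -0.67 for the IT changes. With quantile normalization PG was -0.90 for IT against TS at S1, and without scaling SPS was -0.17 for TS from S2 to S4. The probes called in RG against TS ran from 0 to 2320 at S1, from 2 to 4426 at S2 and from 20 to 5874 at S4 over the alternatives.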
